A study of Drosophila melanogaster with 16 samples.

Results

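The experiment described here compares fly heads in which neurons carried human wild-type α-synuclein with heads in which they did not, whatever the glia carried. Its members are the 7 neuron and both libraries, which had the neuronal transgene, against the 6 control and glia libraries, which lacked it, so 13 of the 16 samples of the series enter. RNA came from whole heads of Drosophila melanogaster at 10 days of age, depleted of ribosomal RNA, and each library pooled 6 flies of both sexes, so that the replicate is a pool. Per the genotype labels, all 4 groups carried both drivers, SybQF2 and RepoGAL4. Control flies had no α-synuclein (SybQF2, RepoGAL4/+), and glia flies added UAS-Syn under the pan-glial Repo driver. Neuron flies added QUAS-Syn under the pan-neuronal Synaptobrevin driver of the Q system, and both flies carried QUAS-Syn and UAS-Syn together. The comparison had 3 control, 3 glia, 3 neuron and 4 both libraries. Control 4, glia 3 and neuron 4 were not analysed here. The comparison asks what α-synuclein in neurons does to the head transcriptome once the glial transgene is set aside as a second factor.

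α-Synuclein is a protein of presynaptic terminals that binds vesicle membranes and forms the Lewy body aggregates of Parkinson's disease. Flies have no α-synuclein gene of their own, and expression of the human protein in fly neurons is a widely used model of its toxicity. The fly head holds the brain, the retina with its photoreceptors, antennae, muscle, fat body and cuticle, so a head library mixes all of these. A lower transcript level can then come, among other sources, from fewer cells of a type or from less RNA in each cell. These cannot be told apart in such samples. The transgene itself has no row among the genes tested here, so its level was not analysed here.

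Levels are normalized counts, which are read counts scaled to a common depth by the authors. Between 2808960 and 4767799 reads lay in genes per library, and the ranges of the libraries without the neuronal transgene (2808960 to 3705086) and with it (3060727 to 4767799) overlapped. Mitochondrially encoded genes took 2.94% to 8.02% of reads. Marker genes of photoreceptors, neurons, glia and muscle were all present in every group. Genes listed for organs outside the head had reads too, and their share of counts went with the groups. The genes of 8 lists (male accessory gland, ejaculatory bulb and duct, testis, eggshell, germline, midgut, Malpighian tubule and oenocyte) made up 1.77% to 3.25% of normalized counts in the 6 libraries without the transgene and 0.625% to 1.77% in the 7 with it. An organ index was the mean on the log2(normalized count + 1) scale over 5 of the 8 lists: accessory gland, bulb and duct, midgut, oenocyte and eggshell. The testis, germline and Malpighian tubule lists were left out of it. The index ran from 5.01 to 7.26 without the transgene and from 2.63 to 3.70 with it, so the groups did not overlap on it. Taken list by list, the library medians of all the organ lists except eggshell did overlap between the groups. Glia 2 stood apart from the other libraries without the transgene, with the highest index (7.26) and the lowest level of neuronal marker genes. Counts for many lists are also given without glia 2, or without control 1, the library with the second highest index (6.92).

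In limma's test of the main effect, with p-values adjusted over 12181 genes by Benjamini-Hochberg, 1718 differed (14.1% of those tested). With the neuronal transgene 777 were higher (6.38%) and 941 were lower (7.73%), while 42.4% of all genes had a fold above 0. The rises were many and small, and they came from well expressed genes. The genes that rose had a median log2 fold of 0.54, only 21 of the 777 rose past 1, and 770 had reads in every library. The falls were large and came from rarer transcripts. Their median log2 fold was -1.85, 633 fell past 1, 420 fell past 2, and 56 had no read in any library with the transgene. The median of the mean normalized count was 331 for genes that rose and 37 for genes that fell. All 7 libraries with the transgene lay above all 6 without it in 307 of the genes that rose, and below them in 145 of those that fell (2.69% and 1.34% of all genes tested were separated in these directions). The sign was the same within each of the 4 batches for 708 of the 777 (91.1%) and for 770 of the 941 (81.8%), against 32.5% of all genes tested. Within-batch values here and below are plain means of present minus absent, without the glial factor. Batch 3 set neuron 3 and both 3 against control 3, and batch 4 set both 4 against glia 4. The genes that rose or fell were called from the same libraries, so these counts describe them and are no separate support.

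These counts depended on the libraries used and on the scale. With the batch as a replicate block the counts were 640 higher (5.25%) and 694 lower (5.7%), of which 594 and 642 were among those above. Without neuron 1 they were 155 and 309, and without control 1 they were 400 and 582. Leaving out both 1, both 2 or both 3 gave 298 to 386 higher and 467 to 558 lower, and leaving out glia 2 gave 612 and 616. Without control 1 and glia 2 together, 412 were higher and 425 lower. With the organ index as a covariate no gene passed in either direction (1188 had an unadjusted p under 0.05). Since the index did not overlap between the groups, the neuronal transgene and organ transcripts cannot be told apart in that fit. When libraries were centred on their neuronal marker genes, the median fold of all genes moved from -0.07 to -0.57, and 20 genes were higher (0.164%) and 5973 lower (49%). Centring lowers the fold of every gene by the same amount. Signs and list medians on that scale therefore restate the folds of the first scale and are no separate result.

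**Figure D1:**
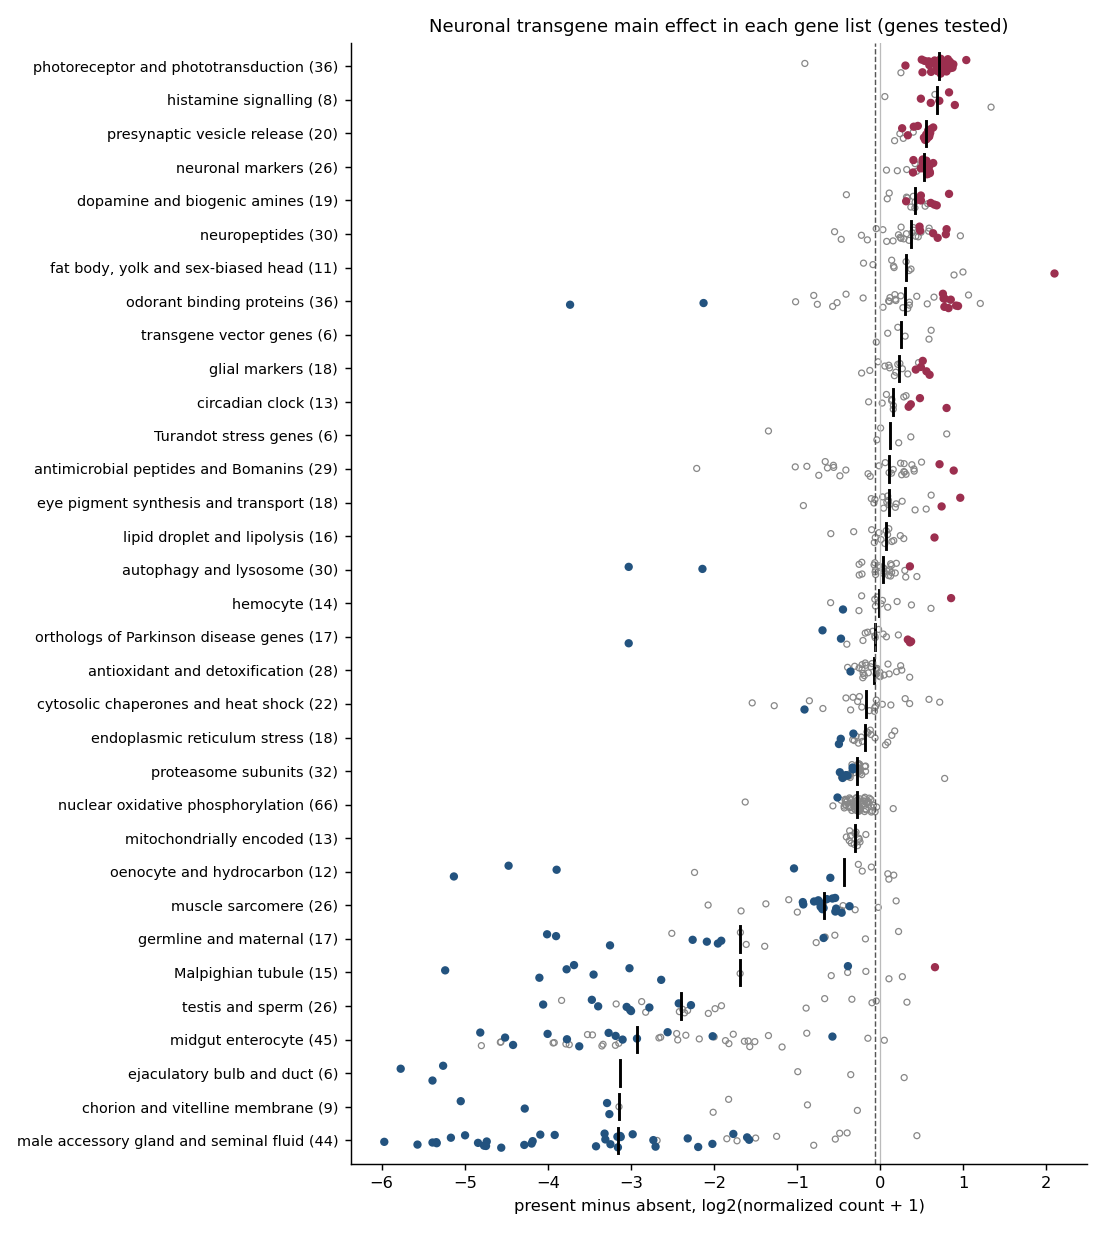
Log2 fold of the neuronal transgene main effect (x axis, log2(normalized count + 1)) for every tested member of the 33 gene lists (y axis, number tested in parentheses), with red points for genes that rose, blue for genes that fell and open grey circles for genes that did not pass. Black bars are list medians and the dashed line is the median of all genes tested (-0.07); the photoreceptor list has the highest median (0.71) and the male accessory gland list the lowest (-3.16).

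Genes of the photoreceptor had the largest share of members that rose among the 33 lists. Fly photoreceptors detect light with opsins that signal through a Gq protein and phospholipase C to the TRP and TRPL channels, and arrestins end the signal. Of the 36 listed genes 34 rose (94.4%, against 6.38% of all genes) and 0 fell, and the list median was 0.71 against -0.07 for all genes tested. The library median of the list was 508 normalized counts in glia 2 and 853 to 1026 in the 5 other libraries without the neuronal transgene. It was 1167 to 1450 in the 7 with it, so the groups did not overlap with or without glia 2. All 7 opsin genes rose, by 0.68 to 0.79. The 4 genes for the G protein subunits and phospholipase C rose by 0.61 to 0.80, and the 5 for channels, scaffold, protein kinase C and the myosin NINAC rose by 0.69 to 0.82. The 3 genes for arrestins and the rhodopsin phosphatase rose by 0.65 to 0.73, and the 5 genes of phosphoinositide and lipid turnover by 0.30 to 0.59.

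The major rhodopsin gene ninaE had 24122 to 49069 normalized counts without the transgene (median 45894) and 58113 to 84273 with it (median 76992), a log2 fold of 0.79 (SE 0.22, adjusted p = 0.0326, and 0.0509 with the replicate block). The opsin gene Rh4 of R7 cells had 953 to 1921 (median 1773) and 2099 to 3348 (median 2803), a log2 fold of 0.76 (SE 0.16, adjusted p = 0.017). All 7 libraries with the transgene were above the other 6 in both genes. The scaffold inaD, which holds the signalling complex together, had 592 to 1256 (median 1091) without and 1641 to 2005 (median 1712) with the transgene, a log2 fold of 0.80 (SE 0.14, adjusted p = 0.012). Gbeta76C, the eye-specific G protein β subunit, had 452 to 945 (median 827) and 1132 to 1494 (median 1300), a log2 fold of 0.80 (SE 0.15, adjusted p = 0.0121). In both genes glia 2 was the lowest library and glia 4 the highest without the transgene, and neither gene overlapped between the groups. The channel gene trp rose by 0.81 (SE 0.18, adjusted p = 0.019) and the phospholipase C gene norpA by 0.71 (SE 0.16, adjusted p = 0.0195), again with no overlap.

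Genes for photoreceptor structure and identity rose as well, 6 of 6, by 0.69 to 1.04. The smallest p of the whole list belonged to boss (FBgn0000206, chromosome 3R from 25961994 to 25966948 of the build BDGP6, plus strand), which encodes the ligand that R8 cells present to the Sevenless receptor. Control 1, 2 and 3 had 226, 259.6 and 253 normalized counts, and glia 1, 2 and 4 had 263, 163 and 279. Neuron 1, 2 and 3 had 450.5, 337 and 390.1, and both 1, 2, 3 and 4 had 505, 450.1, 487 and 407. Every library with the transgene was higher than every library without it, and the log2 fold was 0.85 (SE 0.13, adjusted p = 0.00716, and 0.0249 with the replicate block). The rhabdomere gene prom rose by 0.84 (SE 0.16, adjusted p = 0.0138), and chp, which encodes the photoreceptor adhesion protein chaoptin, rose by 0.87 (SE 0.20, adjusted p = 0.0205). The lens protein gene retinin had the highest fold of the list, 1.04 (SE 0.27, adjusted p = 0.0277), but its groups overlapped at 198 to 610 without and 554 to 1350 with the transgene. The 2 members that did not pass were the sodium-calcium exchanger Calx (0.25, adjusted p = 0.067) and the carotenoid uptake receptor ninaD (-0.91, adjusted p = 0.243), which had 37.7 normalized counts or less in every library. Of the other 4 chromophore and opsin maturation genes all rose, among them ninaB, the enzyme that cleaves carotenoids (0.88, SE 0.18, adjusted p = 0.0151).

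The photoreceptor rise was present within each batch, with list medians of 0.72, 0.84, 0.69 and 0.39 in batches 1 to 4. Of the 36 genes 31 rose with the replicate block and 25 without control 1 and glia 2, where the median was 0.55. Leaving out neuron 1 left 21, and leaving out any other single library left 27 to 34. With the organ index as a covariate the median was -0.09 and 0 of 36 passed. On the scale centred on neuronal markers the list median was 0.21 against -0.57 for all genes, and 10 of the 36 were among the 20 genes still higher. Those 10 were boss, inaD, Rh4, trp, prom, Gbeta76C, ninaB, ninaC, Rh6 and chp.

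**Figure D2:**
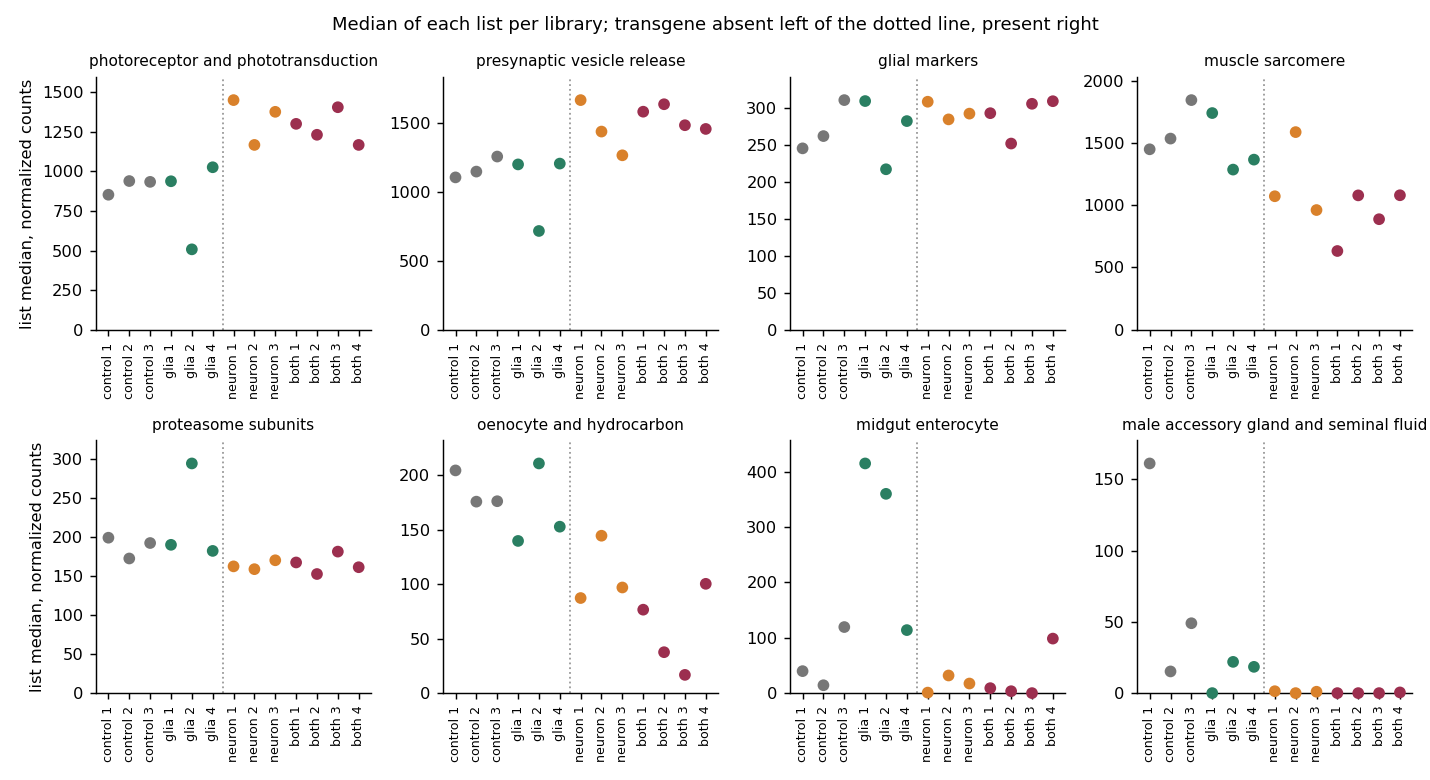
Median normalized count of 8 gene lists (y axis, linear, from 0) in each library (x axis), coloured by group (control grey, glia green, neuron orange, both red), with the 6 libraries without the neuronal transgene left of the dotted line. The photoreceptor medians of 508 to 1026 without and 1167 to 1450 with the transgene do not overlap, and midgut and male accessory gland medians are high in some libraries on the left.

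Many genes of the synapse and of neurons in general rose. Of 20 genes of presynaptic vesicle release 16 rose (80%, against 6.38% of all genes) and 0 fell, with all 20 folds positive and a median of 0.55. The library median was 716 to 1255 normalized counts without the transgene and 1264 to 1664 with it, and glia 2 was the lowest library. The vesicle SNARE gene nSyb, whose enhancer drives the neuronal system, had 1360 to 2800 (median 2220) without and 2946 to 3710 (median 3513) with the transgene, a log2 fold of 0.64 (SE 0.14, adjusted p = 0.019). The active zone gene brp had 1099 to 2202 (median 1913) and 2221 to 3080 (median 2574), a log2 fold of 0.59 (SE 0.15, adjusted p = 0.0245). Neither overlapped between the groups. Complexin (cpx), which clamps vesicle fusion, rose by 0.61 (SE 0.15, adjusted p = 0.0236), at 3100 to 6548 normalized counts without and 6446 to 8427 with the transgene. The endocytic genes Synj, a phosphoinositide phosphatase, and lap, the clathrin adaptor AP180, rose by 0.33 (SE 0.08) and 0.26 (SE 0.06), with adjusted p = 0.0228 and 0.023.

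Of the 26 general neuronal markers 19 rose (73.1%) and 0 fell (median 0.53), among them the choline acetyltransferase gene Cha by 0.60 (SE 0.14, adjusted p = 0.0224) and the N-cadherin gene CadN by 0.60 (SE 0.15, adjusted p = 0.0258). Some genes are in both lists. The neuronal medians were 0.54, 0.82, 0.38 and 0.12 in batches 1 to 4, so the difference was smallest in batch 4, which compared both 4 with glia 4 only. Without control 1 and glia 2 the counts were 13 of 20 presynaptic and 13 of 26 neuronal genes, with medians of 0.35 and 0.34. Without neuron 1 only 1 gene of each list passed. Without both 1 or both 2 it was 5 of 20 presynaptic genes in each case, without both 3 it was 10, and without control 1 it was 7. The neuronal marker count was 3 without both 1, 2 without both 2, 6 without both 3 or control 1, and 12 without both 4. The medians with the organ index as a covariate were -0.22 and -0.20. On the scale centred on neuronal markers the presynaptic median was 0.05, against -0.57 for all genes.

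Histamine is the transmitter of fly photoreceptors, and the list of its synthesis, recycling and receptor genes had a median of 0.68. Of 8 tested genes 5 rose (62.5%, against 6.38% of all genes). Hdc, the enzyme that makes histamine, had 88.7 to 159 (median 145) normalized counts without and 162 to 257 (median 214) with the transgene (fold 0.61, SE 0.14, adjusted p = 0.0208). CG9317, named CarT in the reference and encoding the transporter that returns carcinine to photoreceptors, had 30.6 to 85.2 (median 70.9) and 97.0 to 146 (median 120), a log2 fold of 0.90 (SE 0.21, adjusted p = 0.0208). Both were separated between the groups. The hydrolase gene tan (t) rose by 0.83 (SE 0.22, adjusted p = 0.0279), the glial enzyme gene ebony (e) by 0.49 (SE 0.15, adjusted p = 0.0434) and the receptor channel gene HisCl1 by 0.71 (SE 0.20, adjusted p = 0.0355), with overlapping groups. Of 19 genes of dopamine and other amines 8 rose (42.1%), including the dopamine receptors Dop2R (0.65, SE 0.15, adjusted p = 0.0211) and Dop1R2 (0.68, SE 0.17, adjusted p = 0.0242). The list median was 0.42, and -0.08 on the scale centred on neuronal markers.

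Peptide, clock, glial and olfactory genes rose in part. Of 30 neuropeptide genes 6 rose (20%, against 6.38% of all genes) and 0 fell (median 0.37). The circadian peptide gene Pdf had 66.3 to 205 (median 115) normalized counts without and 165 to 215 (median 202) with the transgene (0.80, SE 0.21, adjusted p = 0.0297), and the groups overlapped. The insulin-like peptide gene Ilp2 had 92.8 to 223 and 231 to 336 with no overlap (0.64, SE 0.17, adjusted p = 0.0284). Corazonin (Crz) rose by 0.69 (SE 0.18, adjusted p = 0.0279) and myosuppressin (Ms) by 0.48 (SE 0.12, adjusted p = 0.0276), but each had the same sign in only 3 of 4 batches. Of 13 clock genes 4 rose (30.8%, median 0.16): Pdf, its receptor Pdfr (0.34), the blue light receptor gene cry (0.37) and per (0.48), a repressor of the clock. The adjusted p of Pdfr and cry was 0.0395 and 0.0352, and 0.0546 and 0.0618 with the replicate block, so that 2 of the clock genes were lost there. Of 18 glial markers 5 rose (27.8%) and 0 fell (median 0.22). Their library medians overlapped at 217 to 311 without and 252 to 309 with the transgene. Eaat2, a glial amino acid transporter gene, rose by 0.59 (SE 0.14, adjusted p = 0.0223) and Mdr65, a blood-brain barrier transporter gene, by 0.56 (SE 0.14, adjusted p = 0.027).

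Odorant binding proteins carry odorants in the antennal lymph, and a few act in other organs. Of 36 genes 8 rose (22.2%, against 6.38% of all genes) and 2 fell (5.56%, against 7.73%), with a median of 0.30. The list median was -0.17 in neuron against control, with 16 of 36 folds positive, and 0.70 in both against glia, with 31 positive, so its direction turned where the glial transgene was absent. Obp28a had 40.8 to 135 (median 105) normalized counts without and 154 to 204 (median 174) with the transgene (0.94, SE 0.19, adjusted p = 0.0167), with no overlap. Obp44a (0.91, SE 0.21, adjusted p = 0.0208), Obp19a (0.82, SE 0.18, adjusted p = 0.0199) and Obp83a (0.78, SE 0.20, adjusted p = 0.0258) rose with overlapping groups. On the scale centred on neuronal markers the medians of the neuropeptide, clock, glial and odorant binding lists were negative, -0.14, -0.34, -0.28 and -0.20, against -0.57 for all genes. Without neuron 1, 0 neuropeptide, clock, glial, amine and histamine genes passed. Without both 2 no neuropeptide or clock gene passed, and without both 1, both 3 or glia 2 no clock gene did. The neuropeptide count was 1 without control 1, both 1 or both 3, and the clock count was 1 without control 1 and 2 without control 2 or neuron 3. Without control 1 and glia 2 together, 2 neuropeptide, 1 glial and 0 clock genes rose. The glial count was 3 by voom and 1 to 3 without control 1, neuron 3 or any single both library. The amine count was 3 to 5 without any single both library, control 1, control 2, glia 2 or neuron 3. The histamine count was 2 to 3 without control 1, neuron 3 or any single both library, and 4 odorant binding genes rose without neuron 1, both 1 or both 2.

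The smallest p among genes that rose belonged to Lsd-1 (FBgn0039114, chromosome 3R from 23763857 to 23766662, plus strand), which encodes perilipin 1 of the lipid droplet surface. Control 1, 2 and 3 had 796, 776 and 872 normalized counts, and glia 1, 2 and 4 had 1114, 775 and 839. Neuron 1, 2 and 3 had 1180, 1220 and 1388, and both 1, 2, 3 and 4 had 1308, 1395, 1529 and 1486. All 7 libraries with the transgene were higher, and the log2 fold was 0.65 (SE 0.09, adjusted p = 0.00542, and 0.0235 with the replicate block). It was the only one of 16 lipid droplet and lipolysis genes to pass (6.25%, against 6.38% of all genes that rose). The Runx factor gene lz, needed for eye development and crystal cells of the blood, had 26.5 to 51.7 (median 36.1) and 56.9 to 70.7 (median 66.5), a log2 fold of 0.85 (SE 0.14, adjusted p = 0.00985). It is 1 of 14 hemocyte genes, of which 1 more passed, the ferritin subunit gene Fer1HCH, which fell (-0.45, SE 0.12, adjusted p = 0.0299), and the list median was -0.01. Each direction held 7.14% of the hemocyte list, near the 6.38% and 7.73% of all genes that rose and fell. Fer1HCH no longer passed without control 2, glia 2, neuron 1, both 1 or both 3. The coiled-coil gene qtc rose by 0.54 (SE 0.09, adjusted p = 0.00953) and bl, which encodes the fly HnRNP-K, by 0.42 (SE 0.07, adjusted p = 0.00994). Both were separated between the groups. The uncharacterized genes CG15465, CG5466, CG9368, CG17325 and CG9497 rose by 0.56 to 0.97, and the last 2 of these had overlapping groups. Centred on neuronal markers, bl and Synj turned negative (-0.08 and -0.17) while Lsd-1 (0.15) and lz (0.35) stayed positive, none past the threshold.

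Among eye pigment genes 2 of 18 rose (11.1%, against 6.38% of all genes), with a list median of 0.10. Sepia (se), an enzyme of the red drosopterin pigments, had 22.1 to 34.5 normalized counts (median 28.2) in the 6 libraries without the transgene. Neuron 1, 2 and 3 had 49.7, 44.6 and 45.2, and both 1, 2, 3 and 4 had 76.6, 76, 64 and 53.1. The groups with the transgene were higher without overlap (0.96, SE 0.16, adjusted p = 0.00953). Cardinal (cd), an enzyme of the brown ommochromes, rose by 0.74 (SE 0.23, adjusted p = 0.046) with overlap, and by voom 1 gene of the list rose. The pigment transporter white (w) did not pass (0.61, SE 0.99, adjusted p = 0.702). It was at 188 to 511 normalized counts in batches 1 and 2 of every group and 2987 to 4252 in batches 3 and 4. Hsp70Bb was divided the same way (11.5 to 188 and 3730 to 5688) and did not pass (0.59, SE 1.77, adjusted p = 0.844).

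**Figure D3:**
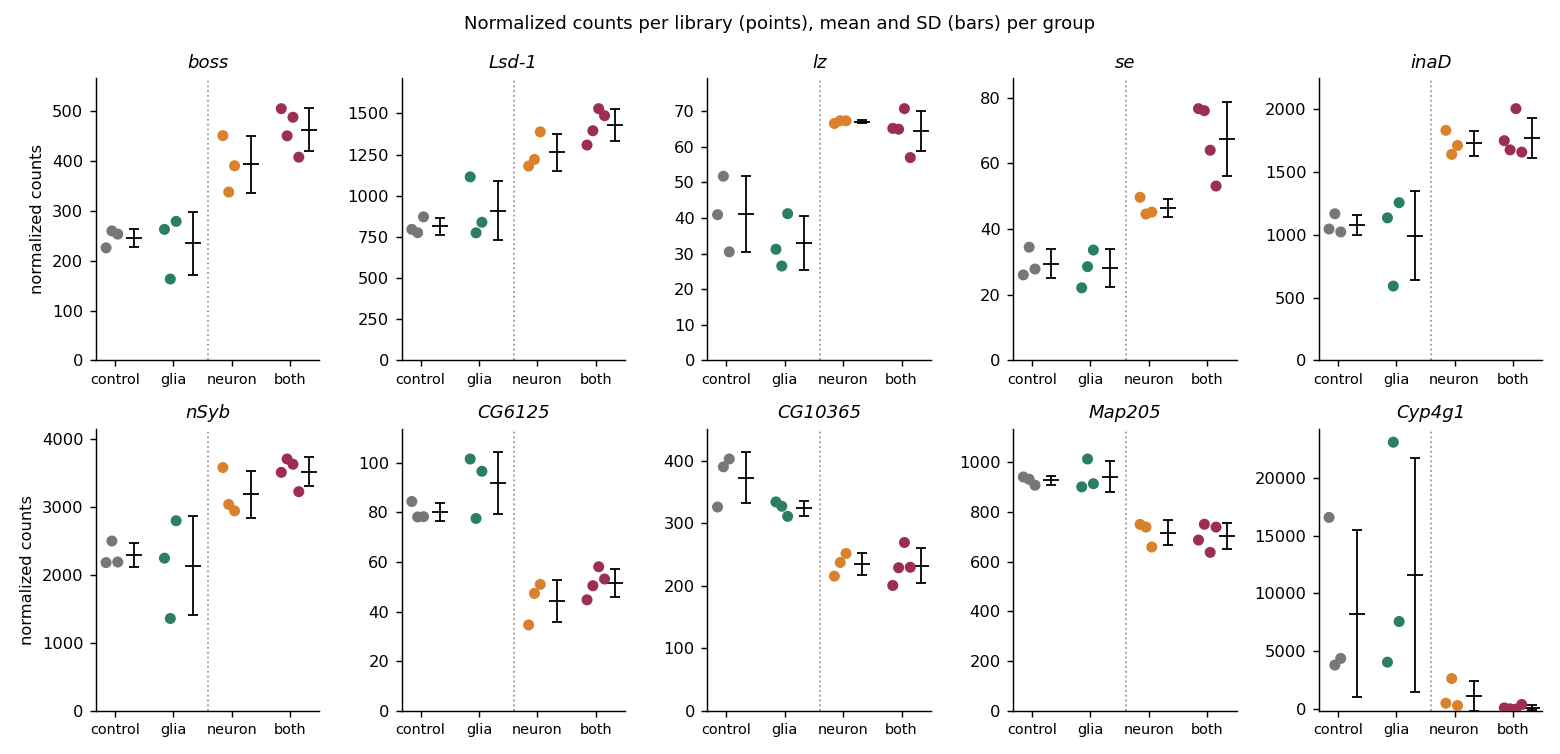
Normalized counts (y axis, linear) of 10 genes in each library (points) by group, with the mean and SD of each group (black bars; 4 both libraries, 3 in each other group) and a dotted line between groups without and with the neuronal transgene. In boss, Lsd-1, lz, se, inaD and nSyb every point to the right lies above every point to the left, and in CG6125, CG10365, Map205 and Cyp4g1 every one lies below.

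The largest rises by fold were in genes near 0. The segment pre-mod(mdg4)-K of the mod(mdg4) locus had no read in 5 of the 6 libraries without the transgene and 2.65 normalized counts in control 3. Neuron 1, 2 and 3 had 58.5, 0 and 20.2, and both 1, 2, 3 and 4 had 39.6, 3.42, 23.8 and 7.72 (fold 3.34, SE 0.84, adjusted p = 0.0251). It overlaps other transcripts of its locus, so its reads may be shared with them. The larval serum protein gene Lsp1alpha had 0 to 3.04 without and 1.49 to 39.1 with the transgene (2.09, SE 0.59, adjusted p = 0.0356). CG10357, CG11458, niki (a NimA-like kinase gene), CG14044, CG31125, CG11437 and the neuropeptide-like gene Nplp3 rose by 1.08 to 1.33, and the groups overlapped in each. With the replicate block CG11437 no longer passed (adjusted p = 0.0913).

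Some well expressed genes with low spread fell modestly, while some well expressed oenocyte genes, given below, fell far more. CG6125 (FBgn0038337, chromosome 3R from 15402598 to 15407070, minus strand) had 77.5 to 101 normalized counts (median 81.3) without the transgene and 34.6 to 58.0 (median 50.4) with it, a log2 fold of -0.84 (SE 0.12, adjusted p = 0.00542). CG10365 had 311 to 403 (median 331) and 200.9 to 269 (median 230), a log2 fold of -0.57 (SE 0.08, adjusted p = 0.00689). Map205, a microtubule-associated protein gene, had 901 to 1013 (median 923) and 638 to 751 (median 739), a log2 fold of -0.40 (SE 0.06, adjusted p = 0.00756). In all 3 genes the groups were separated, the sign was the same in 4 of 4 batches, and the call held with the replicate block (adjusted p = 0.0249, 0.0156 and 0.0249).

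The deepest falls were in transcripts of organs outside the head. How these transcripts came into head libraries was not tested. Of 173 tested genes of the 8 organ lists 83 fell and 1 rose. By list, 28.9% (midgut) to 77.3% (male accessory gland) of the genes fell, against 7.73% of all genes tested. The 83 genes made up 8.82% of all genes that fell. Of 44 male accessory gland and seminal fluid genes 34 fell (median -3.16), and 8 had no read in any library with the transgene. Mst57Db, a seminal fluid gene whose paralogs Mst57Da and Mst57Dc are close neighbours, had 0 to 1467 normalized counts (median 135) without and 0 to 4.43 (median 0) with the transgene (fold -5.97, SE 1.14, adjusted p = 0.0138). Glia 1 had no read either, so the groups overlapped. The seminal fluid gene aqrs had up to 28.5 without and no read with the transgene, at least 30.3-fold lower at a floor of 3 reads over the 7 libraries. Met75Cb, another accessory gland gene with a near copy, fell by 6.69 (SE 1.64, adjusted p = 0.0236). Without control 1 and glia 2 the count was 11 of 44, without neuron 1 it was 18, and with the replicate block 29. By voom on whole reads it was 14 of 44, and under a stricter filter (a normalized count of 10 in 6 or more libraries), which kept 6 of the 44, it was 3.

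The ejaculatory bulb proteins Peb and PebII and the duct peptide Dup99B were the 3 of 6 bulb and duct genes that fell. Dup99B had an adjusted p of 0.0302, and 0.0522 with the replicate block. Peb had 2.60 to 4151 normalized counts (median 354) without and 0 to 17.9 with the transgene (-5.77, SE 1.39, adjusted p = 0.0226), and the groups overlapped. Of 26 testis genes 9 fell, S-Lap3 by 3.40 (SE 0.89, adjusted p = 0.0286), but no testis gene passed without control 1, control 2, neuron 1, both 2 or both 3. It was 1 to 3 genes without glia 2, glia 4, both 1, neuron 2 or neuron 3, 12 without both 4, 17 without glia 1 and 20 without control 3. Of 9 eggshell genes 4 fell. The eggshell protein gene dec had 7.59 to 871 (median 34.2) without and 0 to 1.71 with the transgene (-5.05, SE 0.79, adjusted p = 0.00756). The vitelline membrane gene Vm26Aa had up to 789 without and no read with it, at least 372-fold lower at the same floor, but 789 was in glia 2 and the next highest library had 67.6. Of 17 germline genes 8 fell, among them grk, the dorsal signal of the oocyte, which had 127 to 209 and 76.6 to 125 with no overlap (-0.68, SE 0.12, adjusted p = 0.011). The germline count was 2 or 3 without control 1, neuron 1, both 1, both 2 or both 3, and 2 without control 1 and glia 2. The eggshell count was 1 without neuron 1, 2 without both 1 or both 2 and 1 without control 1 and glia 2. The bulb and duct count was 1 without control 1, control 2, glia 2, neuron 1, both 2 or both 3, and 0 without control 1 and glia 2 together. The testis count was also 0 without that pair. By voom 0 of 6 bulb and duct, 1 of 26 testis, 1 of 9 eggshell and 3 of 17 germline genes fell, and with a pseudocount of 0.1 the testis count was 5. With a pseudocount of 5 the eggshell count was 2. The stricter filter left no eggshell gene, and 1 of 4 bulb and duct, 1 of 6 testis and 5 of 11 germline genes fell there.

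Of 45 midgut genes 13 fell (28.9%, against 7.73% of all genes), with a median of -2.93. Myo61F, a brush border myosin gene, had 110 to 583 normalized counts (median 326) without and 43.1 to 134 (median 64.6) with the transgene (-2.02, SE 0.30, adjusted p = 0.00716). The groups overlapped: both 1 (110 normalized counts) and both 4 (134) reached the control libraries, and the highest midgut list median with the transgene was in both 4 (98.5). The trypsin gene thetaTry fell by 4.81 (SE 0.85, adjusted p = 0.0114) and mex1, an enterocyte gene, by 3.27 (SE 0.55, adjusted p = 0.00994). The midgut count was 8 without glia 2, neuron 1, both 1 or both 2, and under the stricter filter it was 5 of 26. A cluster of aminopeptidase genes gave several of the largest falls of the whole comparison. CG31343 had 15.9 to 1190 (median 112) without and 0 to 4.80 with the transgene (-6.18, SE 0.83), CG31233 had 14.2 to 1021 (median 98.0) and 0 to 7.69 (-6.25, SE 0.88), and both were separated with adjusted p = 0.00542. The α-mannosidase genes CG9468 (LManVI) and CG9466 (LManV) fell by 6.06 (SE 0.73, adjusted p = 0.00361) and 5.27 (SE 0.72, adjusted p = 0.00542) without overlap. Of the remaining genes with the largest falls or smallest p-values, the mucin gene Muc11A, CG17097, CG31198 and CG43147 fell by 6.55, 6.34, 6.08 and 5.85, each with overlapping groups, and CG8773 (-5.27), CG17560 (-4.86), CG7910 (-4.02) and CG30008 (-3.42) fell with no overlap. CG10097 (-4.17) overlapped through neuron 2 alone (86.4 normalized counts, against 79.3 at the lowest without the transgene). Of 15 Malpighian tubule genes 8 fell (53.3%), led by Uro, urate oxidase (-5.24, SE 0.81, adjusted p = 0.00756). The 1 that rose (6.67%, against 6.38% of all genes) was hoe2 (0.66, SE 0.14, adjusted p = 0.018).

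Oenocytes make cuticular hydrocarbons and lie mainly under the abdominal cuticle. Of 12 oenocyte and hydrocarbon genes 5 fell, 4 of them with no overlap. Cyp4g1 (FBgn0010019, chromosome X from 467057 to 469335, minus strand), the P450 that makes hydrocarbons, had 3818 to 23062 normalized counts (median 5983) without and 14.9 to 2652 (median 318) with the transgene (-5.13, SE 0.90, adjusted p = 0.0111). The fatty acid synthase gene v(2)k05816, named FASN2 in the reference, had 495 to 1571 (median 567) and 10.4 to 186 (median 47.3), a log2 fold of -3.90 (SE 0.47, adjusted p = 0.00361), which held with the replicate block (0.0156). Its relative CG17374 had 319 to 2541 and 23.1 to 167 (-3.59, SE 0.50, adjusted p = 0.00542). The elongase gene eloF had 2.17 to 234 and 0 to 1.71 (-4.47, SE 0.82, adjusted p = 0.012). Without control 1 and glia 2, 4 of the 12 still fell. Without neuron 1 or by voom it was 3. Of 11 head fat body and yolk genes 1 rose (9.09%, against 6.38% of all genes), Lsp1alpha, and 0 fell, with a median of 0.31, and 0 rose by voom.

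**Figure D4:**
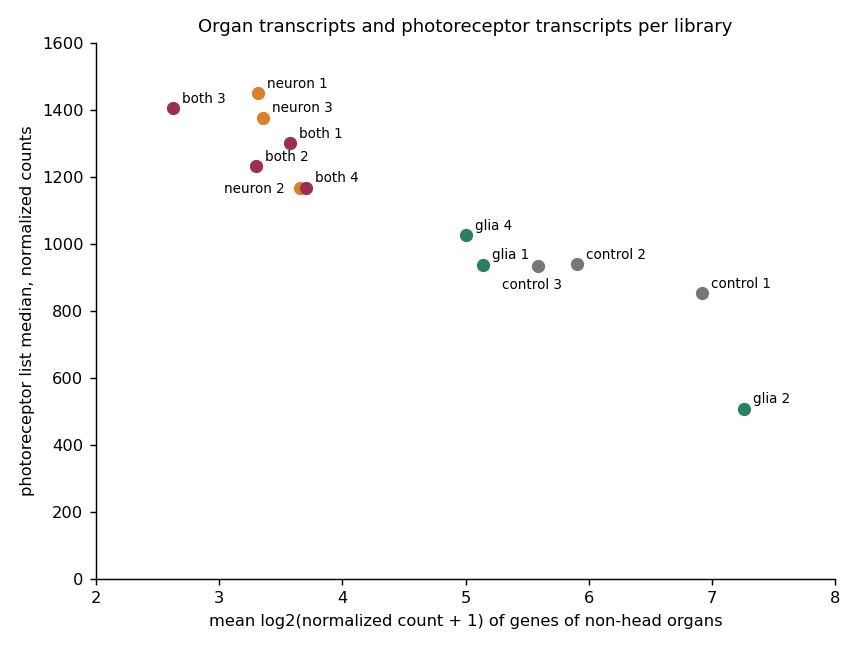
Median normalized count of the photoreceptor list (y axis, linear, from 0) against the organ index (x axis, mean log2(normalized count + 1) over 5 organ lists) in each of the 13 libraries, coloured by group as labelled. The 7 libraries with the neuronal transgene lie at an index of 2.63 to 3.70 and photoreceptor medians of 1167 to 1450, apart from the 6 without it at 5.01 to 7.26 and 508 to 1026.

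Many muscle genes fell in the full set of libraries. Of 26 sarcomere genes 15 fell (57.7%, against 7.73% of all genes) and 0 rose (median -0.68), and 7 fell with the replicate block. The tropomyosin gene Tm1 had 1273 to 1495 normalized counts (median 1408) without and 923 to 1260 (median 1073) with the transgene, separated by a narrow gap (-0.37, SE 0.07, adjusted p = 0.0151). Zasp52, a Z-disc gene, had 2897 to 6489 and 1281 to 4491 (-0.93, SE 0.21, adjusted p = 0.019), and Act57B, a muscle actin gene, fell by 0.46 (SE 0.11, adjusted p = 0.0201), both with overlap. The within-batch list medians were -1.12, -0.06, -1.19 and -0.41 in batches 1 to 4, so batch 2 showed almost no difference. Without control 1 and glia 2, 12 genes fell, and without neuron 1, neuron 3, glia 1, glia 4, both 1, control 1, control 3 or both 3 between 3 and 10 did.

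Genes of the respiratory chain and of protein quality control had mostly negative folds. Of 66 nuclear oxidative phosphorylation genes 65 had negative folds (median -0.28) but 1 passed (1.52%, against 7.73% of all genes that fell). It was the complex III gene ox (-0.52, adjusted p = 0.0434, and 0.0727 with the replicate block). Without neuron 2, 25 of the 66 fell (median -0.36), and with any other single library left out 0 or 1 did. The within-batch medians were -0.60, 0.07, -0.53 and -0.08. None of 13 mitochondrially encoded genes passed (median -0.31). Of 32 proteasome subunits 6 fell (18.8%, against 7.73% of all genes) and 0 rose (median -0.27), Prosalpha2 by 0.45 (SE 0.11, adjusted p = 0.022) and Rpn2 by 0.33 (SE 0.09, adjusted p = 0.0309). Their library medians were 172 to 294 without and 153 to 181 with the transgene. Glia 2 was the highest at 294, and 3 of 32 fell without it. Without neuron 1 none fell, without both 1 or both 2 it was 1, without control 1 it was 2, and without both 3 or both 4 it was 3. Without control 1 and glia 2 together 1 fell, and scaled by library totals 3 fell. Of 22 cytosolic chaperones only Hsc70-1 passed (4.55%, against 7.73% of all genes that fell). Its log2 fold was -0.92 (SE 0.25, adjusted p = 0.0313, and 0.0504 with the replicate block). Of 18 endoplasmic reticulum stress genes 3 fell (16.7%), all of them protein folding genes: CaBP1 (-0.50), Pdi (-0.32) and the Hsp90 paralog Gp93 (-0.48), with adjusted p = 0.0208, 0.0356 and 0.0356. Pdi had 0.0564 with the replicate block. Only 1 gene of the list fell without control 2, glia 2, both 1, both 2, both 3 or any single neuron library, and 6 did without glia 1.

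Fly orthologs of Parkinson's disease genes moved in both directions, with a list median of -0.07, which was also that of all genes. Of 17 genes 3 rose and 3 fell (17.65% each, against 6.38% and 7.73% of all genes), and 0 rose and 1 fell without neuron 1. Only 1 rose without control 1, glia 2, neuron 3 or any single both library, and only 1 fell without both 1, both 2 or both 3. Without control 1 and glia 2 together 1 rose and 1 fell. The kinase gene Lrrk had 240 to 370 normalized counts (median 305) without and 338 to 442 (median 385) with the transgene (0.37, SE 0.10, adjusted p = 0.0354), and the groups overlapped. The glucocerebrosidase paralogs went apart. CG31414 (Gba1b) had 99.4 to 147 and 135 to 174 (0.36, SE 0.10, adjusted p = 0.0361, and 0.0628 with the replicate block), while CG31148 (Gba1a) had 1.33 to 41.8 and 0 to 0.909 (-3.03, SE 0.54, adjusted p = 0.0118). Synj also rose, and ntc (-0.69) and Uch (-0.47) fell, Uch with an adjusted p of 0.0355, and 0.0599 with the replicate block. On the scale centred on neuronal markers Lrrk, CG31414 and Synj had negative folds (-0.13, -0.14 and -0.17). In the autophagy and lysosome list of 30 genes, CG31414 rose and CG31148 and Atg8b fell (3.33% and 6.67%, median 0.04). The antioxidant list had 1 fall in 28 (3.57%), GstS1 (-0.36, SE 0.10, adjusted p = 0.0293). Of 29 antimicrobial and Bomanin peptides 2 rose (6.90%), CG15068 (0.88) and Drsl5 (0.71, and adjusted p = 0.0689 with the replicate block). Their list medians were -0.37 in neuron against control and 0.46 in both against glia. None of these 3 lists held clearly more calls than all genes tested, of which 6.38% rose and 7.73% fell. Without control 1, and likewise without glia 2, 0 autophagy genes rose and 1 fell. In these 2 settings 0 antioxidant genes fell and 1 antimicrobial gene rose. Without control 1 and glia 2 together 0 antimicrobial genes rose. Of 6 Turandot stress genes none passed. At an unadjusted p under 0.05 the whole comparison held 3990 genes.

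The same contrast can be read without the glial transgene (neuron against control) and with it (both against glia), which share no library. Taken alone, neuron against control called 0 genes (1931 at an unadjusted p under 0.05), and both against glia called 37 higher (0.304%) and 304 lower (2.5%). Of those 304 genes 287 (94.4%) also had a negative fold in neuron against control, where 57.3% of all genes were negative. Of the 37 genes 25 (67.6%) had a positive fold there, against 42.6% of all genes. The photoreceptor list had a median of 0.52 without and 0.85 with the glial transgene, and 35 of 36 folds were positive in each. The midgut list had -1.45 and -4.06, and the male accessory gland list had -4.57 and -2.03. Cyp4g1 had -3.10 and -6.91, Lsd-1 0.63 and 0.67, and boss 0.66 and 1.01.

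**Figure D5:**
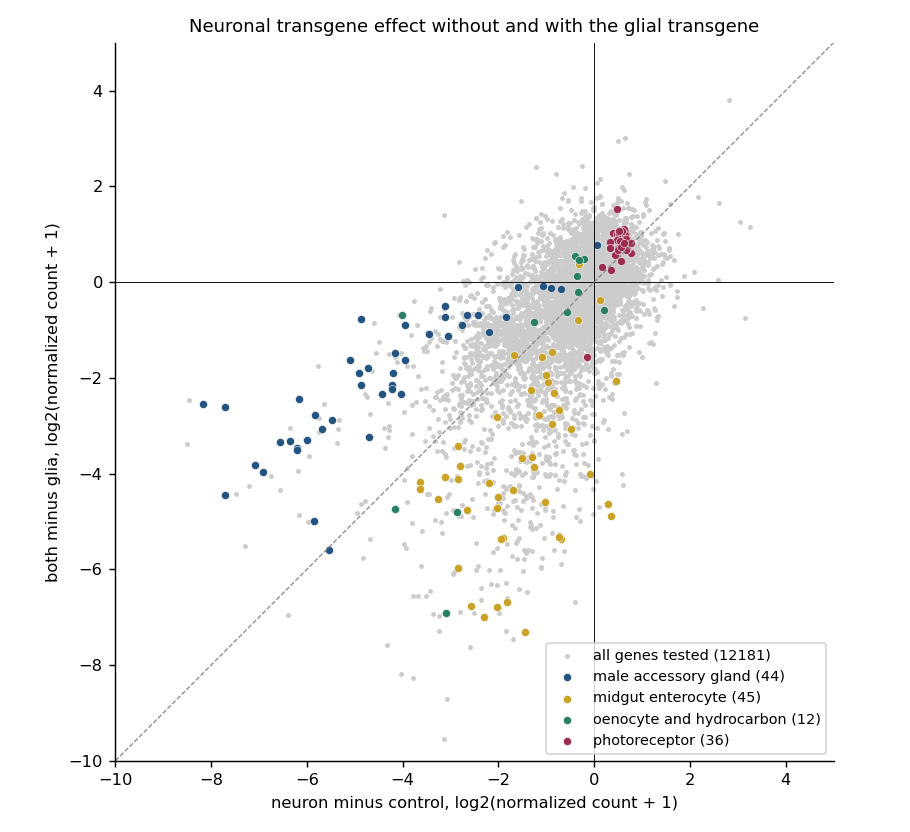
Log2 difference of both minus glia libraries (y axis) against neuron minus control libraries (x axis) on the log2(normalized count + 1) scale, for the 12181 genes tested (grey) and 4 lists in colour, with the dashed line marking equal differences. Photoreceptor genes gather at positive values on both axes (medians 0.52 and 0.85), midgut genes spread downward (median -4.06 on the y axis) and male accessory gland genes to the left (median -4.57 on the x axis).

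The difference between these contrasts was tested by the interaction of the transgenes, which called 10 genes (0.0821%), all with a negative interaction. With the replicate block or by voom on whole reads it called 0 (889 genes had an unadjusted p under 0.05 without the block, 935 with it and 795 by voom). The smallest p belonged to CG9673, a serine protease gene, which had 111 to 176 normalized counts in the 3 glia libraries. The 3 control libraries had 14.9 to 24.3, and the 7 libraries with the neuronal transgene had 9.67 to 15.4 (interaction -3.16, SE 0.37, adjusted p = 0.0186). It was high in the 3 glia libraries alone. The POU factor gene nub (-2.45, SE 0.34, adjusted p = 0.0315), CG18493, CG9568 and CG4301 had the next smallest p-values and the same pattern. The count was 2 without glia 2, 50 without glia 4, and 0 to 3 without control 2, control 3 or any single neuron library or both 1, both 2 or both 3. No photoreceptor, synaptic or oenocyte gene was among the 10. With 0.0821% of all genes called, lists of this size would rarely hold any, so this says little about them.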

How the data were processed

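RNA of whole heads was sequenced as stranded, paired-end libraries after ribosomal RNA depletion, per the labels' protocols. Per the submitters' processing notes the tools included STAR, featureCounts, Salmon and DESeq2 (with FastQC and MultiQC) and the build was BDGP6; versions, settings and how strand was counted are not given in the sources used here. The values the authors deposited are a signal made from read counts, which the headers call adjusted. Each value is 1 plus a read count over a factor fixed within its column: 100% were whole reads within 0.01 after this was undone. Normalized counts are the deposited values minus 1. The 4 pooled mean columns were not used.

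Genes that reached a normalized count of 1 in 4 or more libraries entered the test (12181 of 12286). An additive model of the neuronal and the glial transgene was fitted to log2(normalized count + 1) of 13 libraries by limma-trend (limma 3.58.1, R 4.3.3, 2-sided, 10 residual degrees of freedom), with p-values adjusted by Benjamini-Hochberg at 0.05. SE and adjusted p are from this limma model unless said otherwise, and "rose" and "fell" mean past 0.05. The fit was run on simulated data. These were independent counts with the same dispersion for every gene and no batch, glial effect or shared organ shift. The simulation therefore cannot show the error rate in the real libraries. The log scale understates changes of rare genes, and folds of genes near 0 depend on the added 1.

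Batch equals the replicate number by label, so numbers pair the samples; deviations of same-batch libraries had a median correlation of 0.0697 over 16 pairs, 5 above 0.1. Batches 1 and 2 hold all 4 groups, batch 3 lacks glia and batch 4 lacks control and neuron. A block fit (7 residual degrees of freedom), leaving out each library, other pseudocounts, filters and scalings, an organ covariate and limma-voom on whole reads were the alternatives; 2 more (batches 3 and 4 only, library weights) were added after the data had been seen. The experiment and the 33 gene lists were chosen with earlier results of these data known. Genes were named by rule: up to 10 per direction with the largest fold (mean at least 5), up to 10 further with the smallest p (mean at least 50, outside organ lists), up to 4 per list by p, 5 by interaction p, plus w and Hsp70Bb. Other genes were named after their values were seen. Coordinates are of BDGP6 from Ensembl. A floor of 3 reads covers counting error only.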

Additional observations from a re-analysis of the deposited data

Results flagged for a closer look

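In 17 of 150 groups of libraries examined (list medians and named genes, with or without the transgene), 1 library lay farther from the others than a 95% critical value allows. Chance gives about 1 in 20, and these groups share libraries. Glia 2 accounted for 8 of the 17. Its list medians were low for photoreceptor genes (508 normalized counts), presynaptic genes (716), neuronal markers (1011), dopamine and amine genes (88.7) and histamine genes (59.6), and high for proteasome subunits (294). It was low for CG31125 (3.06) and high for Map205 (1013). Both 2 was low for the glial marker median (252) and high for the eggshell median (0.854). Control 2 was high for the hemocyte median (291.5), and control 3 had the only reads of pre-mod(mdg4)-K without the transgene (2.65). Glia 1 was high for Lsd-1 (1114) and both 4 low for lz (56.9). Neuron 1 was high for CG17097 (14.2) and Mst57Db (4.43), and neuron 2 for CG10097 (86.4).

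The effect of the neuronal transgene differed between flies without and with the glial transgene in 10 genes by the interaction term (limma, adjusted p from 0.0186 to 0.0483). The interaction on the log2 scale was -3.16 for CG9673, -3.82 for CG18493, -2.45 for nub, -4.83 for CG9568, -1.83 for CG4301, -3.20 for Tsp2A, -4.54 for CG43349, -2.38 for CG9380, -1.12 for CG11961 and -3.10 for CG9672. Tsp2A encodes a tetraspanin of gut epithelial junctions. In each gene the 3 glia libraries were above every other library. The midgut list medians were highest in glia 1 (414.8) and glia 2 (360), but glia 4 (113.8) lay below control 3 (119.3). The part of midgut RNA in these genes was not tested.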

How the results depend on the processing

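Across settings, 12181 genes gave 777 higher and 941 lower. Both counts stayed within 1.5 times of these with the replicate block, 4 separate groups, no glial factor, voom, pseudocounts of 0.1 and 5, no filter, library totals as the scale and library weights. A stricter filter left 507 lower. List counts that voom or a filter moved further stand beside the lists. Centring on neuronal markers gave 20 and 5973, batches 1 and 2 alone 20 and 209, and leaving out control 1 and glia 2 together 412 and 425. The organ covariate and batches 3 and 4 alone gave 0 and 0 in limma, with 1188 and 1398 genes at an unadjusted p under 0.05. Leaving out each library gave 155 to 934 higher and 309 to 1287 lower. The interaction called 10, 0 with the replicate block, 0 by voom and 0 to 50 with a library left out. The causes of these shifts were not tested. With the replicate block, which pairs libraries by labelled batch, the values given beside the results are the calls it changed among the genes named, apart from the main effects of Tsp2A and CG9672.

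On the scale centred on neuronal markers the log2 fold of 10 genes named here turned negative: bl (-0.082), Synj (-0.17), lap (-0.24), Lrrk (-0.13), Pdfr (-0.16), e (-0.012), Ms (-0.021), CG31414 (-0.14), cry (-0.13) and per (-0.023). That scale lowers every fold by the same amount, so these 10 turned because their rises were smaller than the common shift. With the organ covariate the sign turned for 43 genes, none of them past the threshold there. Positive folds turned negative in inaD (-0.067), Rh4 (-0.050), trp (-0.035), nSyb (-0.10), retinin (-0.30), cpx (-0.21), Gbeta76C (-0.16), CG9317 (-0.24), ninaB (-0.017), Hdc (-0.21), ninaC (-0.21), norpA (-0.14), Dop1R2 (-0.25), Rh6 (-0.034), CadN (-0.26), Eaat2 (-0.16), chp (-0.21), ninaE (-0.086), Synj (-0.060), brp (-0.075), t (-0.33), hoe2 (-0.15), Lrrk (-0.092), Cha (-0.15), Dop2R (-0.20), Mdr65 (-0.11), Pdf (-0.49), Drsl5 (-0.44), Ms (-0.14), HisCl1 (-0.38), Obp19a (-0.069), Ilp2 (-0.45), Obp83a (-0.033), cry (-0.018) and per (-0.32), and negative folds turned positive in Met75Cb (0.079), Dup99B (0.46), Peb (1.76), PebII (2.89), Vm26Aa (0.92), Pdi (0.12), Uch (0.027) and CaBP1 (0.10). The organ and centred scales were not run with the replicate block. At these depths 3 reads equal 2.23 to 3.98 normalized counts by library, so genes with a few reads carry the largest folds with the least certainty.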

Other observations

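Each library pooled 3 males and 3 females, and genes with sex-biased expression still varied between libraries, with ranges that overlapped between those without and with the neuronal transgene. The yolk protein gene Yp1 had 15880 to 77020 normalized counts without and 45640 to 123900 with the transgene. The female-biased fat body gene fit had 439 to 1031 without the transgene, 221 to 387 in the neuron libraries and 780 to 1828 in the both libraries, so the neuron and both libraries lay on either side of most of the others. The dosage compensation gene msl-2 had 121 in glia 2 and 186 to 233 in the 12 other libraries.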
